A study of Mus musculus with 33 samples.

Results

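The 9 genes described here, Six4, Eya1, Eya2, Eya4, Dlx3, Dlx5, Dlx6, Pitx1 and Tbx1, encode regulators of the cranial placodes and the pharyngeal arches. They were chosen by name with earlier results of these data known, as 9 of the 37991 genes listed in each count file, and all 9 were found. Counts of called genes set beside the share over all genes are therefore descriptive only. Their values were followed in all 33 RNA-seq libraries of E14TG2a cells, a mouse embryonic stem cell (mESC) line. All lines came from CRISPR/Cas9 transfection and puromycin selection. Control (wild-type) clones had received the empty Cas9 plasmid, and Neil1, Neil2 and Apex1 single knockout clones had been given guides that delete the coding part of the active site. Each genotype was sequenced at 3 stages. These were undifferentiated mESCs grown with LIF, embryoid bodies (EBs) on day 8, and EBs of day 8 that had been exposed to 5 µM retinoic acid from day 4 (EBs + RA). Control (#1, #4, #7), Neil1 (#7, #9, #11) and Neil2 (#1, #11, #14) were represented by 3 independent clones per stage. The libraries labelled Apex1 were technical duplicates of 1 clone (#46), so that p-values of comparisons with them measure the spread between libraries and not between clones.

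Six4 belongs to the sine oculis family of homeodomain transcription factors, which act with EYA proteins, which bring coactivator and phosphatase activity to the complex and have no DNA-binding domain of their own. The pair is known from the preplacodal ectoderm, the source of the sense organs and cranial ganglia, where DACH proteins are further partners. DLX and PITX proteins are homeodomain factors of the ectoderm and arches, with Dlx5 and Dlx6 as a neighbouring gene pair that patterns the lower jaw, and Tbx1 is a T-box factor of pharyngeal endoderm and mesoderm. RA signals through nuclear receptors and drives embryoid bodies towards neural fates, and NEIL1, NEIL2 and APEX1 are enzymes of base excision repair. In bulk libraries such as these, fewer cells of a type and less RNA per cell cannot be told apart.

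Promoter sequences of RefSeq (assembly GRCm38.p6, 250 bases before to 50 after the start site) were at hand for 3 of the 9 genes, Six4, Eya4 and Tbx1. The windows of Six4 and Eya4 are shown because these genes changed in opposite directions in EBs, with capitals for every match to the motifs named below. The Six4 window is chr12:73113196-73113495 and the Eya4 window chr10:23349894-23350193, both on the minus strand.
Six4: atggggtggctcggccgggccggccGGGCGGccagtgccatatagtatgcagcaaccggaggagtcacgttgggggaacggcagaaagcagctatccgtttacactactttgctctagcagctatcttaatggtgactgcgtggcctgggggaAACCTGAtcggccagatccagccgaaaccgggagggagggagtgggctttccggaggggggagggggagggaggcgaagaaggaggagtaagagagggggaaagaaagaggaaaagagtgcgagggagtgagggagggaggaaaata
Eya4: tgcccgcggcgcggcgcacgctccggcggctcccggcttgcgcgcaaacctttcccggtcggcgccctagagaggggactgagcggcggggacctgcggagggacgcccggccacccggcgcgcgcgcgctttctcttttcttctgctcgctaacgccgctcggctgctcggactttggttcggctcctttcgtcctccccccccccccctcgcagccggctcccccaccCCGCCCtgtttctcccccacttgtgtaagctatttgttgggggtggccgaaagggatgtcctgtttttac
In the Six4 window, the first capitals are a GC box (GGGCGG), which starts at -225 from the start site, and the second are the complement of the sine oculis-binding MEF3 letters TCAGGTT, which start at -97. The capitals of Eya4 are a GC box on the minus strand at -20. A GC box on either strand was in 35.66% of 32851 promoters of the same length, and TCAGGTT in 4.07%. The nuclear receptor half-site AGGTCA (16.26% of promoters), the homeodomain core TAATTA (5.29%) and the T-box half-site AGGTGTGA (1.28%) had no match in the windows of Six4, Eya4 or Tbx1, which says only that these letters are not there. The GC content was 60.0% for Six4 and 69.3% for Eya4 in the windows shown and 57.3% and 64.0% in the others, against a median of 52.7%.

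Libraries held 21523742 to 48350904 counts on genes. The stages differed as labelled in the pluripotency markers (Pou5f1, Nanog, Zfp42, Klf4, Esrrb, Tdgf1), whose summed level in controls was 4590 to 5080 CPM (counts scaled to library size by TMM) in mESCs, fell to between 1610 and 1750 CPM in EBs and was lowest after RA, at 76.3 to 115 CPM. Counts summed over the targeted genes did not check the genotypes, since each deletion removes only part of a gene. Apex1 stood at 73.0 to 77.2 CPM in mESC libraries labelled Apex1 and at 7.76 to 17.8 in control mESCs, which goes against a loss of its mRNA. Neil1 stood at 2.48 to 31.5 CPM in Neil1 mESCs (7.62 to 9.85 in controls). It was lower in Neil1 EBs + RA, at 2.18 to 4.33 CPM against 6.04 to 8.11 in controls. In EBs the ranges met, at 1.38 to 6.05 CPM in Neil1 and 5.80 to 9.18 in controls. Neil2 stood at 4.86 to 5.85 CPM in Neil2 EBs + RA (3.40 to 4.50 in controls) and overlapped the controls in mESCs and EBs. The paper reports genotyping PCR of the knockout clones, western blots for NEIL1 and APEX1 and RT-qPCR for Neil2. Since the counts do not check the genotype at every stage, the directions of all 3 mutants rest here on the labels. Neil1 and Neil2 stand for the libraries so labelled. The libraries labelled Apex1, each above all controls of its stage in Apex1 counts, are named that way throughout. The Neil1 clone #11 mESC library stood apart, with 0 counts at 345 of the 511 genes of chromosome X that had counts in all other mESC libraries.

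In control cells, Six4, the sine oculis factor of the set, had the highest level per kb of exon in mESCs and EBs, and Dlx3, a DLX gene of ectoderm and placodes, was the next. In control EBs + RA, Dlx3 reached 8.16 ± 3.69 CPM per kb (SD, n = 3) and Six4 6.36 ± 0.194, a difference within the SD of Dlx3. Below them in EBs + RA came Eya2 with 2.81 ± 0.738 CPM per kb, Eya1 with 1.13 ± 0.333, Pitx1 with 0.708 ± 0.0488, Dlx5 with 0.564 ± 0.227, Dlx6 with 0.393 ± 0.114, Eya4 with 0.386 ± 0.0503 and Tbx1 with 0.151 ± 0.0591. Neighbours from Pitx1 to Eya4 in this order lay within 1 SD of each other. Dlx5 (0 to 29 counts per library), Dlx6 (1 to 41), Tbx1 (1 to 24) and Eya4 (1 to 50) rested on few counts, whereas Six4 never fell below 342 and Dlx3 never below 60. Dlx5 (NCBIM37, chromosome 6, 6827805 to 6832085) and Dlx6 (6813334 to 6818568) lie side by side on opposite strands, and the antisense gene Dlx6os1 spans Dlx6 with 0 shared exon bases and 0 to 7 counts.

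**Figure D1:**
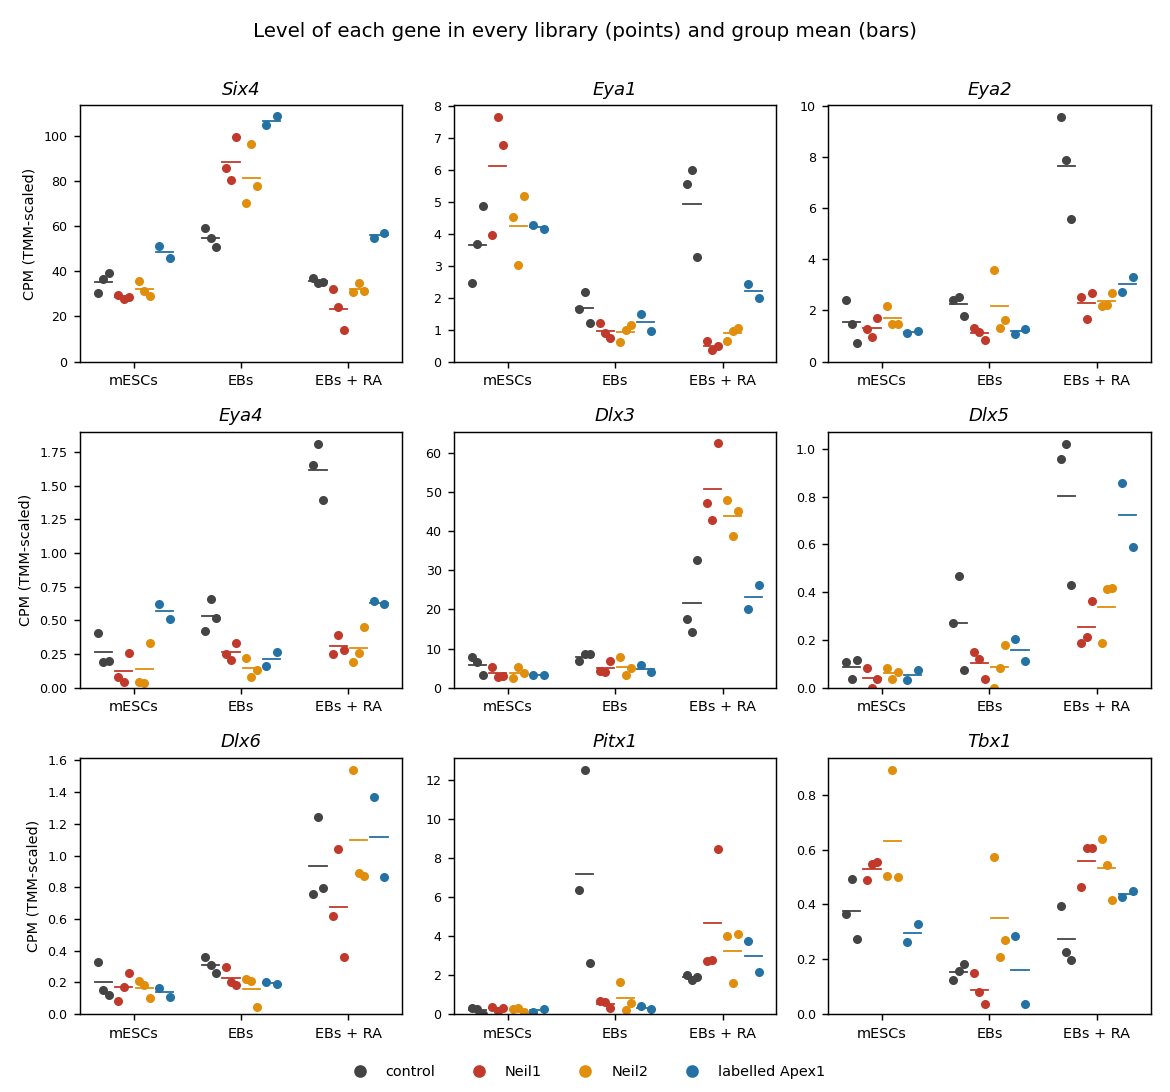
Level of the 9 genes in CPM (y axis, from 0, a scale per gene) in each of the 33 libraries (points) and as group means (bars), by stage (x axis) and genotype (colour). Control libraries of EBs + RA stand above all Neil1 and Neil2 libraries for Eya1, Eya2 and Eya4, and below them for Dlx3. For Dlx5 (13 counts in control #7 and Neil2 #11) and Tbx1 (12 counts in control #1 and Neil2 #14) the nearest libraries differ only by scaling. The share of all genes with separated libraries was not computed.

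The first question was how the genes behave when control cells differentiate. Between control mESCs and control EBs, Pitx1, a factor of hindlimb and first arch, rose most. It stood at 0.329, 0.265 and 0 CPM in mESCs of control #1, #4 and #7, and at 6.37, 12.5 and 2.62 CPM in EBs of these clones. All 3 EB libraries were above all mESC libraries (log2 fold change 5.10, SE 0.78, edgeR adjusted p = 0.000999). Six4 rose by a log2 fold change of 0.61 (SE 0.13, adjusted p = 0.00567), from 30.5, 36.6 and 39.5 CPM to 59.3, 55.0 and 50.8 CPM. Eya1 fell by 1.14 on the log2 scale (SE 0.34, adjusted p = 0.0248), from 2.45, 3.67 and 4.87 CPM to 1.66, 2.18 and 1.22 CPM. These were 3 of the 6 genes that passed the filter on low counts, while 38.7% of all genes tested were called in this comparison (adjusted p below 0.1, absolute log2 fold change above 0.5). Pitx1 and Eya4 passed only through EBs, where they are higher, so the count is partly set by the filter. Eya2, Eya4 and Dlx3 were not called.

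RA moved 8 of the 8 tested genes in control EBs, against 44.1% of all genes tested. Dlx5 and Dlx6 passed the filter on low counts only through EBs + RA, where they are higher, and Tbx1 did not pass. The count is therefore partly set by the filter. Eya2, a coactivator partner of Six4 and its relatives, stood at 2.40, 2.53 and 1.77 CPM in control EBs and at 9.58, 7.88 and 5.56 CPM in EBs + RA of the same clones (log2 fold change 1.76, SE 0.26, adjusted p = 0.00063). Eya1 rose from 1.66, 2.18 and 1.22 CPM to 5.55, 5.99 and 3.28 CPM (1.54, SE 0.31, adjusted p = 0.00344), and Eya4 from 0.420, 0.662 and 0.516 CPM to 1.65, 1.81 and 1.39 CPM (1.61, SE 0.30, adjusted p = 0.00215). For all 3 Eya genes, the libraries with and without RA did not overlap, and neither did those of Six4, Dlx3, Dlx6, Pitx1 and Tbx1. The share of all genes without overlap was not computed. Dlx3 rose from 6.72, 8.60 and 8.62 CPM to 17.6, 14.3 and 32.6 CPM (log2 fold change 1.43, SE 0.30). Dlx5 and Dlx6 each rose with a log2 fold change of 1.54 (SE 0.55 and 0.35), although Dlx5 lost its call without control #1 or #7 EBs or without control #1 or #4 EBs + RA (1.14 to 2.02 over fits with 1 library left out). Six4 and Pitx1 moved the other way. Six4 fell by 0.63 (SE 0.10), to 36.9, 34.8 and 35.5 CPM, and Pitx1 by 1.93 (SE 0.50), to 1.98, 1.73 and 1.92 CPM. Tbx1 was below the filter on low counts. With the clone as a block, since EBs and EBs + RA of a clone were split from shared dishes, all 8 stayed called.

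Next, each mutant was compared with the 3 control libraries of its stage, which the 3 comparisons share. In mESCs, none of the tested genes was called by edgeR, with 0 of 5 in Neil1, 0 of 5 in Neil2 and 0 of 6 in the libraries labelled Apex1, where 1.82%, 1.83% and 16.9% of all genes were called. At an unadjusted p below 0.05 the counts were 1, 0 and 2, and DESeq2 called 0, 0 and 1. Six4 in the libraries labelled Apex1 stood at 51.5 and 46.2 CPM, above all 3 controls, with a log2 fold change of 0.43 (SE 0.14) that was under the limit of 0.5. Dlx3 stood there at 3.19 and 3.17 CPM against 7.91, 6.47 and 3.26 CPM in controls (log2 fold change -0.92, SE 0.38, adjusted p = 0.154), and was the gene called by DESeq2.

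In EBs, Six4 was higher and Pitx1 lower in all 3 mutants. Of the 6 tested genes, 5 were called in Neil1, 3 in Neil2 and 5 in the libraries labelled Apex1, where 23.5% (10.4% higher, 13.1% lower), 16.3% (8.65% higher, 7.69% lower) and 25.8% (11.9% higher, 13.9% lower) of all genes tested were called. Among the 6, Pitx1 and Eya4 passed the filter on low counts only through the controls, where they are higher. The counts of called genes are therefore partly set by the filter. Six4 stood at 85.9, 80.5 and 99.8 CPM in Neil1 #7, #9 and #11, at 70.4, 96.7 and 77.9 CPM in Neil2 #1, #11 and #14, and at 105 and 109 CPM in the libraries labelled Apex1. All of these lay above the highest control EB library, 59.3 CPM. The log2 fold change was 0.69 (SE 0.10, adjusted p = 0.000757) in Neil1, 0.58 (SE 0.15, adjusted p = 0.0349) in Neil2 and 0.96 (SE 0.09, adjusted p = 6.3e-05) in the libraries labelled Apex1. Neil2 lost the call without control #4, control #7 or Neil2 #11 (0.44 to 0.66), and the other calls held with each library left out. The 59 genes within 5 Mb of Six4 with a mean of at least 5 CPM had a median log2 difference from controls of 0.40 in both EB libraries labelled Apex1, 0.41 and 0.42 in EBs + RA and 0.26 and 0.24 in mESCs, against -0.10 to 0.06 in Neil1 and Neil2 EBs. Its part in the Six4 result was not tested.

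Pitx1 fell the most of the set. It stood at 0.650, 0.610 and 0.335 CPM in Neil1 EBs, at 1.63, 0.209 and 0.586 CPM in Neil2 EBs and at 0.405 and 0.267 CPM in the libraries labelled Apex1, all below the lowest control EB library of 2.62 CPM. Control EBs themselves spread from 2.62 to 12.5 CPM. The log2 fold change was -3.76 (SE 0.61, adjusted p = 0.00269) in Neil1, -3.07 (SE 0.72, adjusted p = 0.0263) in Neil2 and -4.40 (SE 0.93, adjusted p = 0.0228) in the libraries labelled Apex1. Neil2 lost the call without clone #14 (-4.17 to -2.43 over fits with 1 library left out) and without a filter on low counts, and the libraries labelled Apex1 without duplicate 2 (-4.78 to -3.76). Mesoderm and endothelial markers (7 genes, among them T, Mesp1 and Kdr) had 1 called higher and 5 lower in Neil1, 1 higher and 5 lower in Neil2, and 1 higher and 4 lower in the libraries labelled Apex1. Of all genes tested, 10.4%, 8.65% and 11.9% were higher and 13.1%, 7.69% and 13.9% lower. Among the markers, the endothelial adhesion gene Pecam1 was the higher one in each mutant (log2 fold change 1.04, 0.97 and 0.56, SE 0.09, 0.16 and 0.09). The list summed to 151 to 204 CPM in control EBs, 85.8 to 94.1 in Neil1, 66.0 to 97.8 in Neil2 and 94.9 to 101 in the libraries labelled Apex1. Their part in the Pitx1 result was not tested, nor was that of the 59 genes within 5 Mb of Pitx1, whose median log2 difference was -0.48 and -0.40 in the EB libraries labelled Apex1 and -0.18 to -0.02 in Neil1 and Neil2 EBs.

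The Eya genes were low in EBs of every genotype, and their calls were less firm. Eya2 stood at 1.30, 1.14 and 0.857 CPM in Neil1 EBs, below all controls (log2 fold change -1.03, SE 0.28, adjusted p = 0.0196), and this held with each library left out. In Neil2 EBs it was 3.60, 1.30 and 1.62 CPM, which overlapped the controls. In the libraries labelled Apex1, at 1.09 and 1.26 CPM, its log2 fold change was -0.93 (SE 0.29, adjusted p = 0.0335), a call lost without either duplicate (-1.06 to -0.83). Eya1 was called in Neil1 EBs (-0.84, SE 0.32, adjusted p = 0.0767) but lost the call without control #1 or #4 or Neil1 #9 or #11 (-1.03 to -0.63), and by DESeq2. Eya4, with under 1 CPM in each EB library, was called in Neil2 (-1.74, SE 0.48, adjusted p = 0.0458) and the libraries labelled Apex1 (-1.26, SE 0.51, adjusted p = 0.0827). The first call was lost without any 1 library other than Neil2 #1 (-2.23 to -1.48), the second without control #4 or either duplicate (-1.67 to -0.96) and by DESeq2. Dlx3 was called lower in Neil1 EBs (4.40, 4.02 and 6.82 CPM, log2 fold change -0.64, SE 0.23, adjusted p = 0.0591), lost without control #4 or #7 or Neil1 #7 or #9 (-0.91 to -0.49). In the libraries labelled Apex1 (5.76 and 3.92 CPM) it was called at -0.72 (SE 0.22, adjusted p = 0.0306), lost without duplicate 2 (-1.02 to -0.47).

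**Figure D2:**
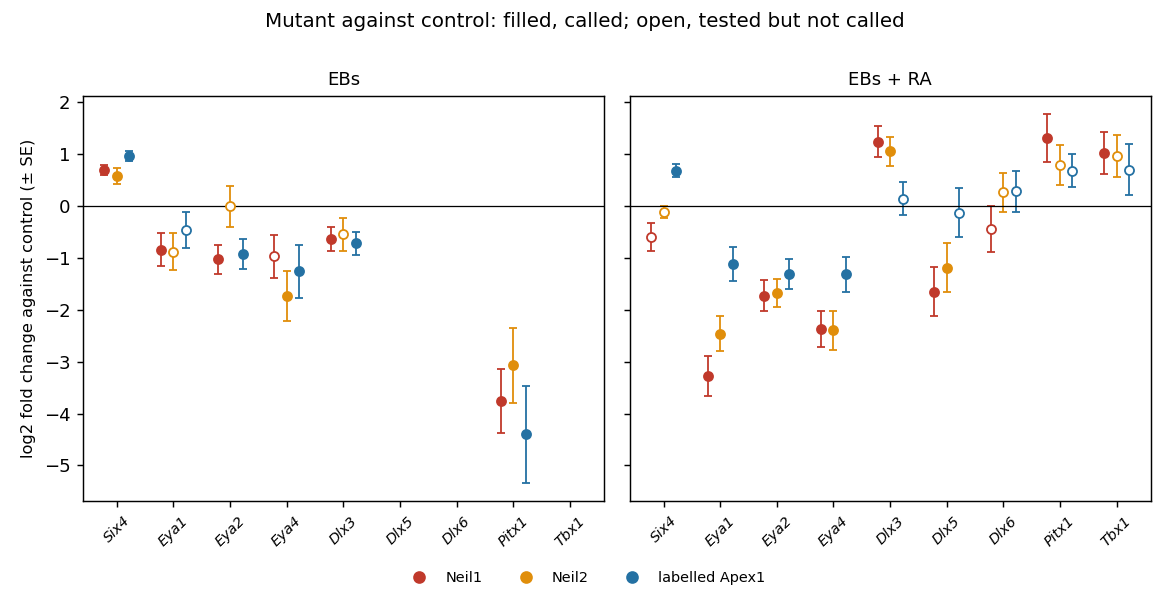
Log2 fold change against control (y axis, error bars 1 SE) of each gene (x axis) in EBs (left) and EBs + RA (right) for Neil1, Neil2 and the libraries labelled Apex1, with filled points for called values and open points for values tested but not called. Genes without points were below the filter on low counts. Pitx1 lies between -4.40 and -3.07 in EBs, and Eya1, Eya2 and Eya4 are all below 0 in EBs + RA.

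In EBs + RA, the 3 Eya genes stood far below control in both Neil mutants while Dlx3 stood above it. All 9 genes passed the filter on low counts, and 7 were called in Neil1, 5 in Neil2 and 4 in the libraries labelled Apex1. In the Neil comparisons, Eya4 and Dlx5 passed only through the controls and Tbx1 only through the mutants. These counts are therefore partly set by the filter. The backgrounds were 41.1% (21.2% higher, 19.9% lower), 34.9% (18.3% higher, 16.6% lower) and 24.8% (13.9% higher, 10.9% lower) of all genes tested.

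Eya1, which is required for ear and kidney formation, stood at 0.650, 0.357 and 0.485 CPM in Neil1 #7, #9 and #11 and at 0.638, 0.956 and 1.04 CPM in Neil2 #1, #11 and #14. Control EBs + RA held 5.55, 5.99 and 3.28 CPM, and the libraries labelled Apex1 2.44 and 2.00 CPM. Each mutant library was below each control library, with the libraries labelled Apex1 in between. The log2 fold change was -3.28 (SE 0.38, adjusted p = 0.000659) in Neil1, -2.46 (SE 0.34, adjusted p = 0.00165) in Neil2 and -1.12 (SE 0.33, adjusted p = 0.0477) in the libraries labelled Apex1. Eya2 stood at 2.54, 1.68 and 2.67 CPM in Neil1, at 2.18, 2.23 and 2.67 CPM in Neil2 and at 2.74 and 3.31 CPM in the libraries labelled Apex1, again all below the lowest control of 5.56 CPM. Its log2 fold changes were -1.73 (SE 0.30, adjusted p = 0.00405), -1.68 (SE 0.27, adjusted p = 0.00281) and -1.31 (SE 0.29, adjusted p = 0.0182).

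Eya4, a further coactivator of the family that is active in the ear, followed its relatives. It had 8, 11 and 7 counts in Neil1, 5, 8 and 13 in Neil2 and 15 and 18 in the libraries labelled Apex1, against 50, 48 and 42 in controls. The log2 fold changes were -2.37 (SE 0.35, adjusted p = 0.00186), -2.40 (SE 0.38, adjusted p = 0.00293) and -1.32 (SE 0.34, adjusted p = 0.0296). For all 3 Eya genes, the Neil1 and Neil2 calls held with each library left out. Those of the libraries labelled Apex1 did not: Eya2 and Eya4 lost theirs without either duplicate (-1.49 to -1.12 and -1.42 to -1.23), and Eya1 without either duplicate or without control #1 or #4 (-1.35 to -0.96). Lists of other cell types moved alongside. Neural markers (5 genes) summed to 247 to 432 CPM in control EBs + RA, 39.2 to 52.4 in Neil1, 39.1 to 49.2 in Neil2 and 65.9 to 72.3 in the libraries labelled Apex1, and neural crest markers (7 genes) to 93.2 to 116, 21.3 to 31.2, 28.2 to 32.4 and 51.0 to 61.0 CPM. No gene of either list was at 0 in all libraries of a group of EBs + RA. Their part in the Eya results was not tested.

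Dlx3 stood at 47.2, 42.8 and 62.3 CPM in Neil1 EBs + RA and at 47.8, 38.8 and 45.1 CPM in Neil2, all above the highest control of 32.6 CPM. The log2 fold change was 1.24 (SE 0.30, adjusted p = 0.0153) in Neil1, which held with each library left out. In Neil2 it was 1.05 (SE 0.28, adjusted p = 0.0233), which was lost without control #1 (0.82 to 1.47). The libraries labelled Apex1, at 20.2 and 26.1 CPM, lay among the controls. Surface ectoderm markers (10 genes, keratins, Trp63 and Cdh1 among them) summed to 2350 to 4540 CPM in Neil1 and 2020 to 2390 in Neil2, against 1030 to 1690 in controls and 1260 to 1380 in the libraries labelled Apex1. The sum is not particular to that tissue, as undifferentiated control mESCs held 510 to 595 CPM of it. Trophoblast markers (5 genes) were higher too, at 271 to 810 CPM in Neil1 and 240 to 419 in Neil2. They summed to 136 to 211 CPM in controls and 118 to 144 in the libraries labelled Apex1. The part of these shifts in the Dlx3 result was not tested.

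Dlx5 and Dlx6 did not rise with Dlx3. Dlx5 had 6, 6 and 9 counts in Neil1 and 5, 13 and 12 in Neil2 against 29, 27 and 13 in controls, and was called lower in Neil1 (log2 fold change -1.65, SE 0.48, adjusted p = 0.0287) and Neil2 (-1.19, SE 0.47, adjusted p = 0.0838). The Neil1 call was lost without control #1 or #4 (-1.97 to -1.46). The Neil2 call was lost without any 1 library other than control #7 (-1.50 to -0.92), and by DESeq2. Dlx6, its neighbour, stood at 0.760, 1.24 and 0.795 CPM in controls, 0.619, 1.04 and 0.363 in Neil1 and 1.54, 0.892 and 0.868 in Neil2, with overlapping groups and no call. The 20 genes within 5 Mb of the pair with a mean of at least 5 CPM had median log2 differences from controls down to -0.51 in EBs + RA of the mutants, and their part in the Dlx5 result was not tested.

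Six4, Pitx1 and Tbx1 were each called in 1 mutant at this stage, which does not show that the mutants differ (the direct tests follow). Six4 stood at 54.7 and 57.3 CPM in EBs + RA labelled Apex1, above the controls at 36.9, 34.8 and 35.5 CPM (log2 fold change 0.68, SE 0.12, adjusted p = 0.00776), which held with each library left out. In Neil1 it was 32.0, 24.3 and 13.8 CPM, below all controls but not called (-0.60, SE 0.27, adjusted p = 0.111), and in Neil2 30.9, 34.8 and 31.3 CPM. Pitx1 stood at 2.72, 2.79 and 8.48 CPM in Neil1, above all controls (1.31, SE 0.46, adjusted p = 0.0561). This call was lost without any control or without Neil1 #11, which had the highest value (0.56 to 1.59). In Neil2 Pitx1 was 3.98, 1.59 and 4.10 CPM and in the libraries labelled Apex1 3.77 and 2.18 CPM, and neither was called. Tbx1 had 15, 17 and 15 counts in Neil1, 17, 17 and 12 in Neil2, 10 and 13 in the libraries labelled Apex1 and 12, 6 and 6 in controls. It was called in Neil1 (1.02, SE 0.41, adjusted p = 0.0841), a call lost by DESeq2 and without any 1 library other than control #1 (0.82 to 1.38).

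Whether the response to RA itself differed was tested with an interaction term over EBs and EBs + RA of a mutant and the control. Of the 9 genes, 6 were called in Neil1, 5 in Neil2 and 1 in the libraries labelled Apex1 (adjusted p below 0.1), against 32.2%, 15.4% and 16.5% of all genes tested. In Neil1, Eya4 passed the filter on low counts only through the controls and Tbx1 only through Neil1 EBs + RA. The Neil1 count is therefore partly set by the filter. Pitx1 differed in all 3 mutants. It went down with RA in each control clone, from 6.37 to 1.98, 12.5 to 1.73 and 2.62 to 1.92 CPM, and up in each mutant library, as in Neil1 #11, from 0.335 to 8.48 CPM. The interaction was 5.08 (SE 0.82, adjusted p = 0.00133) in Neil1, 3.85 (SE 0.87, adjusted p = 0.014) in Neil2 and 5.07 (SE 0.85, adjusted p = 0.00401) in the libraries labelled Apex1, and held with each library left out. Eya1 went up with RA in every control clone and down in every Neil1 clone, from 1.20 to 0.650, 0.894 to 0.357 and 0.745 to 0.485 CPM (interaction -2.43, SE 0.50, adjusted p = 0.00462). In Neil2 it was 0.605, 1.00 and 1.13 CPM without RA and 0.638, 0.956 and 1.04 CPM with it (-1.59, SE 0.49, adjusted p = 0.0572). Eya2 differed in Neil2 (-1.69, SE 0.50, adjusted p = 0.0471), where clone #1 went from 3.60 to 2.18 CPM, #11 from 1.30 to 2.23 and #14 from 1.62 to 2.67 CPM, so that 1 clone went down and the others up by less than each control clone. It was not called in Neil1 (-0.69, SE 0.41). Eya4 differed in Neil1 (-1.38, SE 0.51, adjusted p = 0.0675).

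Dlx3 was higher with RA in every clone, and more so in both Neil mutants. It went from 4.40, 4.02 and 6.82 CPM to 47.2, 42.8 and 62.3 CPM in Neil1 (interaction 1.91, SE 0.41, adjusted p = 0.0065) and from 7.84, 3.14 and 5.13 CPM to 47.8, 38.8 and 45.1 CPM in Neil2 (1.57, SE 0.45, adjusted p = 0.0434). Six4 was lower with RA in every clone, more so in Neil1 (-1.28, SE 0.30, adjusted p = 0.0108) and Neil2 (-0.72, SE 0.18, adjusted p = 0.0241). Tbx1 was called in Neil1 (1.84, SE 0.73, adjusted p = 0.0846) but not with the clone as a block (1.83, adjusted p = 0.134). The Six4, Eya1, Dlx3 and Pitx1 calls in Neil1 and the Six4 and Pitx1 calls in Neil2 held with each of the 12 libraries left out. Dlx3 in Neil2 was lost without control #1 EBs + RA (1.30 to 2.03). Eya2 in Neil2 was lost without control #7 EBs, control #1 or #4 EBs + RA or Neil2 #11 EBs + RA (-1.95 to -1.09). Eya1 in Neil2 (-1.83 to -1.38), Eya4 in Neil1 (-1.59 to -1.16) and Tbx1 in Neil1 (1.44 to 2.34) stayed called in 4, 4 and 3 of the 12 fits.

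**Figure D3:**
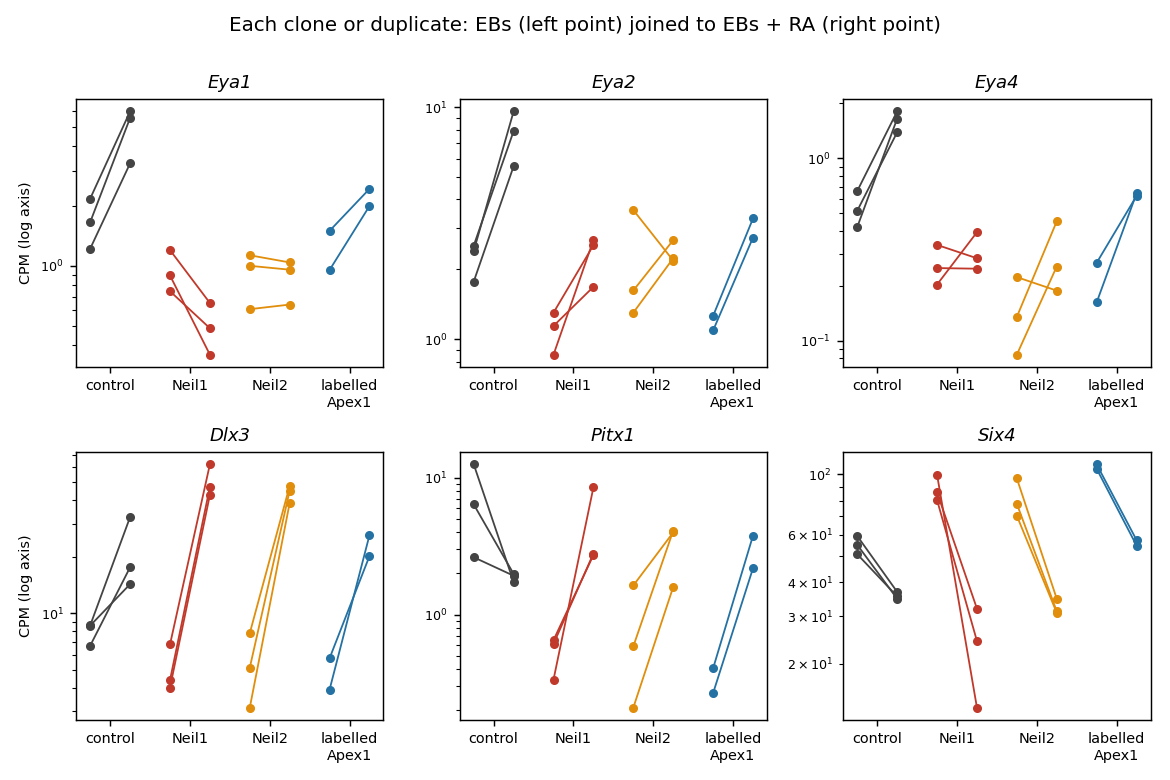
CPM (y axis, log scale) of 6 genes in EBs (left point) and EBs + RA (right point) of each clone or duplicate, joined by a line, for control, Neil1, Neil2 and the libraries labelled Apex1 (x axis). The control lines of Pitx1 run down and all mutant lines run up, and the control lines of Eya1 run up where the Neil1 lines run down.

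Direct tests between mutants followed. Between Neil1 and Neil2, edgeR called none of the 5 genes tested in EBs and none of the 7 tested in EBs + RA, with 0% and 0% of all genes called. At an unadjusted p below 0.05, 1 of the 5 (Eya2) and 0 of the 7 passed, and DESeq2 called 0 and 0. Against the mean of the Neil mutants, the libraries labelled Apex1 differed at 0 of 5 genes in EBs (19.1% of all genes called) and at 4 of 9 in EBs + RA (26.7%). At an unadjusted p below 0.05, 1 of the 5 passed in EBs (Six4, 0.32, SE 0.14). In EBs + RA, Eya1 was higher (log2 fold change 1.70, SE 0.32, adjusted p = 0.00585), with 2.44 and 2.00 CPM against 0.357 to 1.04 CPM in the Neil clones. Six4 was also higher (0.99, SE 0.23, adjusted p = 0.0159), and Dlx3 was lower, with a log2 fold change of -1.07 (SE 0.19, adjusted p = 0.0052). Dlx5 was higher at 1.25 (SE 0.44, adjusted p = 0.0681). Only the Eya1 call among these 4 held with each library left out. Six4 was lost without either duplicate (0.86 to 1.13), Dlx3 without duplicate 1 (-1.25 to -0.88), and Dlx5 without either duplicate or Neil1 #7 or #9 (0.97 to 1.51).

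Other genes of the same families were followed in the same fits, 9 in all (Six2, Six3, Six5, Six6, Eya3, Dlx1, Dlx2, Dlx4, Pitx3). In EBs, 0 were called higher and 3 lower of 4 tested in Neil1, 0 higher and 2 lower of 4 in Neil2, and 0 higher and 3 lower of 5 in the libraries labelled Apex1 (medians -1.13, -0.86 and -0.65, all genes 0, 0.02 and 0). Of all genes tested, 10.4%, 8.65% and 11.9% were higher and 13.1%, 7.69% and 13.9% lower. Six2, a gene of kidney and facial mesenchyme, went from 5.95 ± 0.286 CPM (SD, n = 3) in control EBs to 0.262 ± 0.0626 in Neil1 and 0.523 ± 0.247 in Neil2 (log2 fold change -4.47 and -3.46, SE 0.28 and 0.35). In the libraries labelled Apex1 it was 1.33 ± 0.331 CPM (n = 2, -2.16, SE 0.24), so that the order of the group means was control, labelled Apex1, Neil2 and Neil1. Dlx2, a DLX gene of the upper jaw and forebrain, was lower in all 3, with 0.655 ± 0.253 CPM in control EBs, 0.202 ± 0.0883 in Neil1 and 0.264 ± 0.0835 in Neil2 (-1.62 and -1.29, SE 0.47 and 0.44). Dlx2 in both Neil comparisons, and Six2 in that of Neil1, passed the filter on low counts only through the controls, where they are higher. The counts of lower genes are therefore partly set by the filter. Eya3, an EYA gene of many tissues, was not called in any of these 6 comparisons, with group means of 67.7 to 88.7 CPM in EBs and EBs + RA.

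In EBs + RA, 2 of these genes were higher and 1 lower of 6 tested in Neil1, 2 higher and 1 lower in Neil2, and 2 higher and 0 lower in the libraries labelled Apex1 (medians 0.39, 0.46 and 0.57, all genes 0, 0 and -0.02). Of all genes tested, 21.2%, 18.3% and 13.9% were higher and 19.9%, 16.6% and 10.9% lower. Dlx1 and Dlx2, a neighbouring gene pair, were the family genes that rose in all 3 mutants. In the Neil comparisons both passed the filter on low counts only through the mutants, where they are higher. The counts of higher genes there are therefore partly set by the filter. Dlx2 went from 0.325 ± 0.139 CPM in control to 1.17 ± 0.230 in Neil1, 0.819 ± 0.199 in Neil2 and 0.924 ± 0.0856 (n = 2) in the libraries labelled Apex1 (log2 fold change 1.85, 1.35 and 1.53, SE 0.42, 0.43 and 0.46). Dlx1 went from 0.194 ± 0.0622 CPM to 0.545 ± 0.127 in Neil1 and 0.690 ± 0.0574 in Neil2 (1.48 and 1.82, SE 0.42 and 0.38). Six5, which lies beside a muscle kinase gene and is widely active, was lower in Neil1 (-0.92, SE 0.28) and was called lower in Neil2 too.

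**Figure D4:**
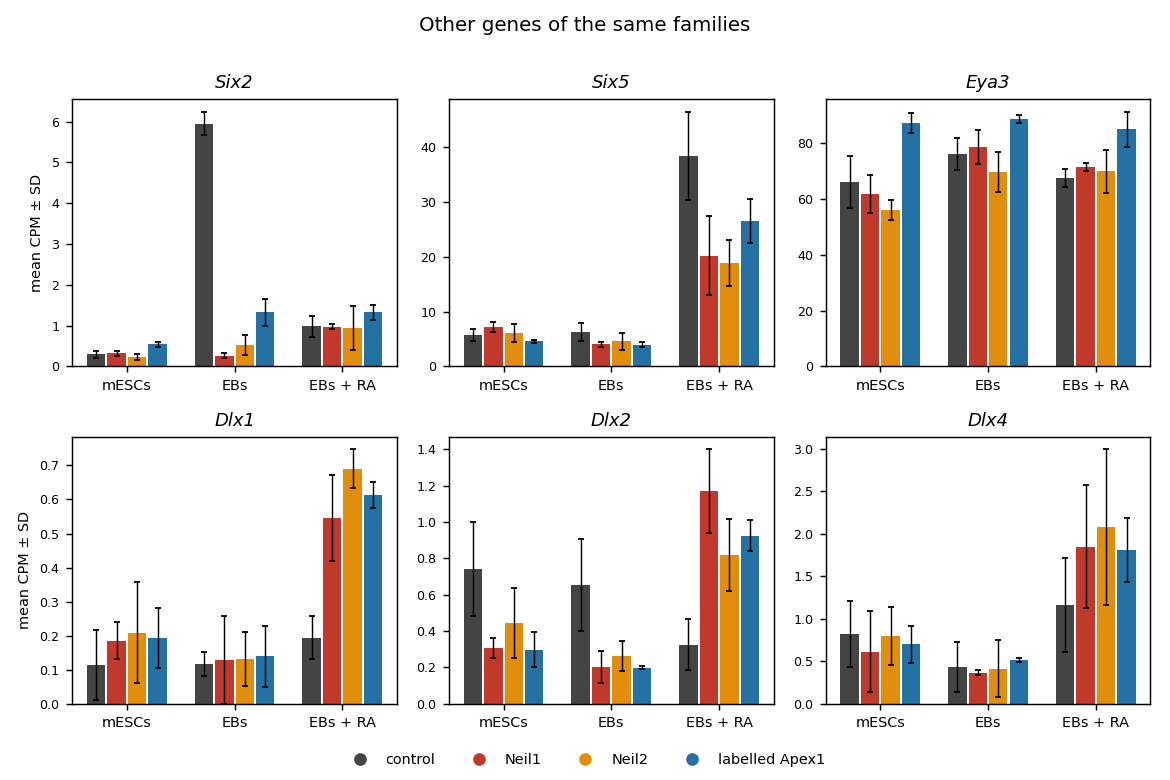
Group mean CPM (bars from 0, error bars SD, n = 3 or, for the libraries labelled Apex1, 2) of 6 other genes of the same families by stage (x axis) and genotype (colour). Six2 is lower in Neil1 and Neil2 EBs than in control EBs, and Dlx1 and Dlx2 are higher in the mutants than in control EBs + RA.

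The DACH and SOBP partners of these complexes changed mainly with RA. Dach1 rose from 1.49 ± 0.385 to 77.9 ± 26.6 CPM with RA in controls and reached only 5.04 ± 3.39 CPM in Neil1 and 7.27 ± 1.37 in Neil2 (log2 fold change against control -3.93 and -3.40, SE 0.53 and 0.29). In the libraries labelled Apex1 it was 29.9 ± 4.42 CPM (-1.35, SE 0.29). Dach2 gave -4.72, -4.38 and -2.32 (SE 0.77, 0.34 and 0.30), and Sobp was called lower in Neil1 (-1.23, SE 0.26) and was not called in the other two. In the direct tests in EBs + RA, 0 of the 3 partners were called between Neil1 and Neil2, and 3 of 3 were higher in the libraries labelled Apex1 than in the Neil mutants. In EBs without RA, Dach1 was lower in Neil1 (-1.62, SE 0.38), Neil2 (-2.11, SE 0.41) and the libraries labelled Apex1 (-1.06, SE 0.40), while Sobp was called higher in the libraries labelled Apex1 (1.24, SE 0.45, adjusted p = 0.0578).

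Genes of the preplacodal region and placodes (20 genes, such as Foxi1, Gata3, Pax2 and Neurog1) split in direction. In EBs + RA, 4 were higher and 6 lower of 15 tested in Neil1, 4 higher and 6 lower of 15 in Neil2, and 3 higher and 6 lower of 16 in the libraries labelled Apex1 (medians 0.35, 0.05 and -0.60). Of all genes tested there, 21.2%, 18.3% and 13.9% were higher and 19.9%, 16.6% and 10.9% lower (medians 0, 0 and -0.02). The listed genes that fell most in Neil1 were the neurogenic factors Neurog1 (log2 fold change -7.84, SE 0.64), Neurog2 (-5.37, SE 0.52) and Neurod1 (-3.13, SE 0.48). Neurog1 stood at 7.95 to 18.3 CPM in control EBs + RA and at 0 to 0.121 CPM in Neil1. In EBs, 3 were higher and 2 lower of 13 in Neil1, 4 higher and 2 lower of 14 in Neil2, and 3 higher and 5 lower of 13 in the libraries labelled Apex1 (medians 0.49, 0.45 and -0.49). Of all genes tested in EBs, 10.4%, 8.65% and 11.9% were higher and 13.1%, 7.69% and 13.9% lower (medians 0, 0.02 and 0). In Neil1 EBs Fgf3, a signal for the ear placode, was lower (-2.10, SE 0.27), and Neurod1 (1.90, SE 0.44) and Otx2, a head and forebrain factor (1.11, SE 0.09), were higher.

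Genes of the pharyngeal arches (28 genes) had more lower than higher calls in EBs. In Neil1, 2 were higher and 14 lower of 24 tested, in Neil2 3 higher and 14 lower of 25, and in the libraries labelled Apex1 1 higher and 13 lower of 26 (medians -2.10, -1.53 and -0.95). Of all genes tested, 10.4%, 8.65% and 11.9% were higher and 13.1%, 7.69% and 13.9% lower. In EBs + RA the arch counts were 6 higher and 12 lower of 25 in Neil1, 6 and 11 of 25 in Neil2, and 9 and 7 of 25 in the libraries labelled Apex1 (medians -0.32, -0.53 and 0.27). There, 21.2%, 18.3% and 13.9% of all genes were higher and 19.9%, 16.6% and 10.9% lower. Msx1, a homeobox gene of arch and limb mesenchyme, stood at 65.2 to 123 CPM in control EBs and at 2.53 to 4.00 CPM in Neil1 (log2 fold change -4.94, SE 0.28). Hand2, a bHLH factor of the ventral arches and heart, gave -5.76 (SE 0.90) in Neil1 EBs and -3.40 (SE 0.32) in Neil1 EBs + RA. Prrx1, a marker of arch mesenchyme, gave -4.04 (SE 0.60) and -5.36 (SE 0.45), and Ednra, the endothelin receptor that relays ventral arch identity, -3.43 (SE 0.24) in Neil1 EBs + RA.

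Marker lists of the tissues in which the 9 genes act moved as well. Of all genes tested in Neil1, 10.4% were higher and 13.1% lower in EBs, and 21.2% and 19.9% in EBs + RA. Surface ectoderm markers had 2 higher and 4 lower of 9 tested in Neil1 EBs and 8 higher and 0 lower of 10 in Neil1 EBs + RA, with Krt8 (-1.51, SE 0.25), Krt18 (-1.38, SE 0.21) and Wnt6 (-2.24, SE 0.42) lower in EBs and Krt14 (2.95, SE 0.90), Grhl3 (1.70, SE 0.30) and Cdh1 (1.43, SE 0.25) higher in EBs + RA. Neural crest markers had 1 higher and 5 lower of 6 in Neil1 EBs and 0 higher and 5 lower of 7 in Neil1 EBs + RA, where Tfap2b (-8.18, SE 0.66), Pax3 (-3.84, SE 0.61) and Snai2 (-2.65, SE 0.32) fell most. Sox9 (-3.12, SE 0.45), Snai2 (-2.45, SE 0.44) and Pax3 (-2.44, SE 0.46) fell in Neil1 EBs. Neural markers had 3 higher and 1 lower of 4 in Neil1 EBs and 0 higher and 5 lower of 5 in Neil1 EBs + RA, with Pax6 at 2.36 (SE 0.43) in EBs and at -4.30 (SE 0.43) in EBs + RA. Mesoderm and endothelial markers had 1 higher and 5 lower of 7 in Neil1 EBs, with Mesp1 (-5.63, SE 0.60), Kdr (-4.72, SE 0.19) and T (-4.24, SE 0.32), and 2 higher and 3 lower of 5 in Neil1 EBs + RA.

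**Figure D5:**
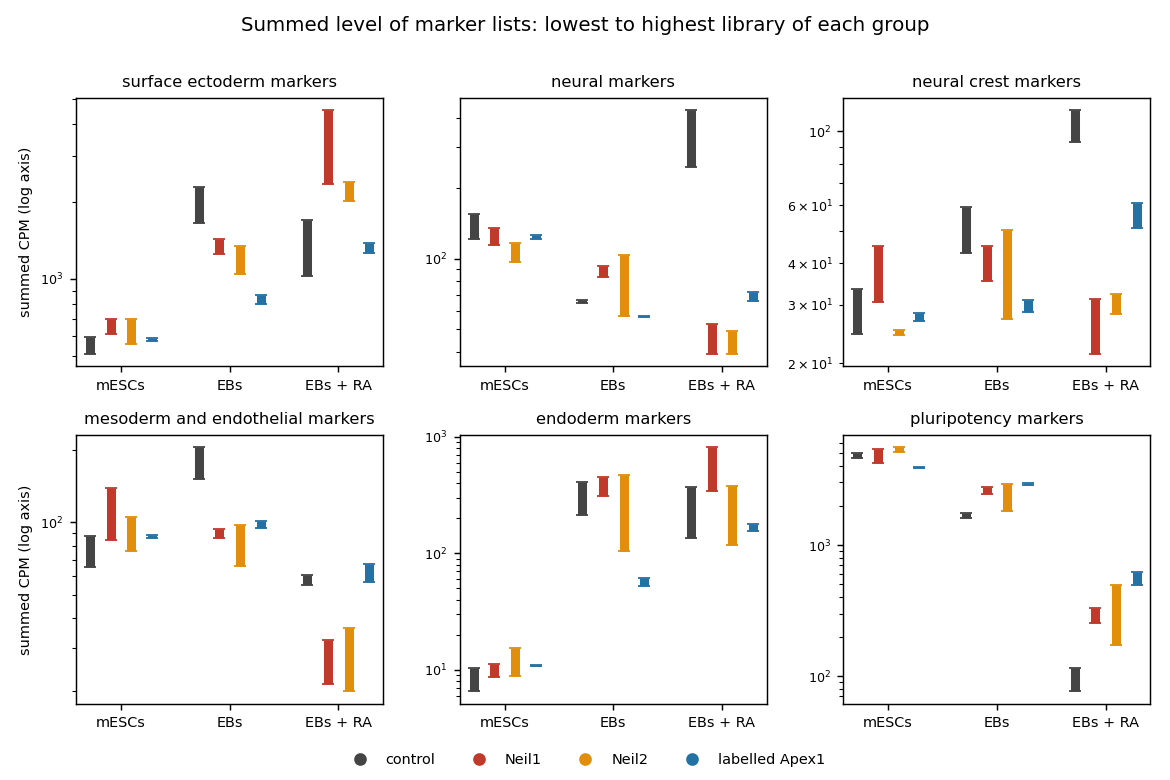
Summed CPM (y axis, log scale) of 6 marker lists by stage (x axis) and genotype (colour), each bar running from the lowest to the highest library of a group. In EBs + RA the neural and neural crest bars of control lie above those of all mutants, and the surface ectoderm bars of Neil1 and Neil2 lie above that of control.

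Over the 33 libraries, the genes whose centred log2 CPM differed least on average from that of each gene were, among 17964 genes, Ankle2 (mean absolute difference 0.31) and Col18a1 (0.32) for Six4, Trps1 (0.45) and Vegfc (0.46) for Eya1, and Fgfrl1 (0.31) and 1110051M20Rik (0.31) for Eya2. For Eya4 they were Efnb2 (0.46) and Mpdz (0.47), for Dlx3 Baiap2l1 (0.30) and Mycbpap (0.37), and for Pitx1 Foxf2 (0.58) and Fam65c (0.58). The closest for Dlx5 were Ttyh3 (0.39) and Tada1 (0.40), for Dlx6 Tspan3 (0.35) and Scube3 (0.36), and for Tbx1 Stk32c (0.35) and Parvb (0.36), where low counts limit the measure. No gene of the set was among the 2 closest of another.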

How the data were processed

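Polyadenylated RNA was sequenced for 51 cycles with an unstranded kit. Per the labels and the submitters' processing notes, the authors aligned reads with TopHat2 (2.0.9) to NCBIM37 and deposited raw counts per gene from HTSeq (0.5.4). Reads at more than 1 place (11.44% to 19.85%) were set aside. Counts were read here as deposited, with libraries grouped by their labels. Genes passing filterByExpr were TMM-scaled and compared with the robust quasi-likelihood test of edgeR 4.0.16 (R 4.3.3) with Benjamini-Hochberg adjustment over all genes tested. A gene was called when its adjusted p was under 0.1 and its log2 fold change exceeded 0.5 in either direction (interactions by the adjusted p alone), the limits of the study's methods. All 18 comparisons were refitted with DESeq2 1.42.0 (used by the authors as version 1.6.3), RLE size factors, no filter, all 12 groups in 1 fit, a replicate block, an adjusted p below 0.05 and each library left out. The procedure was tested on simulated data.

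The 9 genes and all lists were chosen with earlier results of these data known. Alx1, Sox1 and Map2 could not be matched to 1 identifier and were left out. The lists were described by counts and medians. A listed gene that is low in 1 group could pass the filter through the other group alone, which partly sets these counts. The other named genes were other sine oculis, EYA, DLX and PITX family genes (some are not reported here), up to 3 called genes per list and stage with the largest changes in Neil1 EBs and EBs + RA (a mean of at least 1 CPM in 1 group), and the 2 genes nearest to each of the 9. In each of the 30 pairs of libraries within groups, counts differed beyond sampling noise (chi-squared per degree of freedom 5.58 to 127). EBs and EBs + RA of a clone deviated together (correlation of deviations from group means 0.16 to 0.35 in 11 pairs, -0.30 to 0.09 between libraries of different replicate number, which include the duplicates of the 1 clone labelled Apex1), as the shared dishes of the labels imply. mESCs and EBs of a clone did not (-0.30 to 0.09). Intervals were not computed, and standard errors come from the fits.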

Additional observations from a re-analysis of the deposited data

Results flagged for a closer look

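For 12 values the response to RA differed between a mutant and the control by the interaction term itself (edgeR, log2 scale). In Neil1 these were Six4 (-1.28, SE 0.30, adjusted p = 0.0108), Eya1 (-2.43, SE 0.50, adjusted p = 0.00462), Eya4 (-1.38, SE 0.51, adjusted p = 0.0675), Dlx3 (1.91, SE 0.41, adjusted p = 0.0065), Pitx1 (5.08, SE 0.82, adjusted p = 0.00133) and Tbx1 (1.84, SE 0.73, adjusted p = 0.0846). In Neil2 they were Six4 (-0.72, SE 0.18, adjusted p = 0.0241), Eya1 (-1.59, SE 0.49, adjusted p = 0.0572), Eya2 (-1.69, SE 0.50, adjusted p = 0.0471), Dlx3 (1.57, SE 0.45, adjusted p = 0.0434) and Pitx1 (3.85, SE 0.87, adjusted p = 0.014). In the libraries labelled Apex1, Pitx1 was the one (5.07, SE 0.85, adjusted p = 0.00401). For Pitx1, the sign of the response was opposite in controls and in every mutant library, and control EBs spread from 2.62 to 12.5 CPM.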

How the results depend on the processing

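Of 336 refits of called values under the other settings, 303 kept their call and 33 lost it, and of 405 refits with 1 library left out, 315 kept it and 90 lost it. None reversed. Counts of called genes moved by more than 1.5 times in 3 settings and at 1 threshold. With all 12 groups in 1 fit they were 3 in Neil1 EBs, 5 in Neil2 EBs, 2 in EBs labelled Apex1 and 5 for control EBs against mESCs, and at an adjusted p below 0.05, 3 in Neil1 EBs. In mESCs labelled Apex1, DESeq2 called 1 gene and the replicate block 3. The cause was not tested. With 1 library left out, the counts ran from 0 to 1 in Neil2 mESCs (1 without control #7), 0 to 3 in mESCs labelled Apex1 (3 without control #7), 3 to 4 in Neil1 EBs, 1 to 4 in Neil2 EBs, 1 to 5 in EBs labelled Apex1, 4 to 7 in Neil1 EBs + RA, 3 to 5 in Neil2 EBs + RA, 1 to 5 in EBs + RA labelled Apex1, 3 to 5 for control EBs against mESCs, 2 to 5 and 1 to 2 for the interactions of Neil2 and of the libraries labelled Apex1, and 1 to 5 for these libraries against the Neil mutants in EBs + RA. Leaving out 1 duplicate leaves 1 library, assumed to vary like the others. Between genotypes, equal replicate numbers name different clones. Blocking on them ended the calls of Eya1 in Neil1 EBs (adjusted p = 0.102), Tbx1 in Neil1 EBs + RA (0.131) and Dlx5 in Neil2 EBs + RA (0.131), and with the clone as a block no interaction other than Tbx1 in Neil1 (0.134) lost its call. For the libraries labelled Apex1 that block was the duplicate number within 1 clone, so it does not account for clones. At under 1 CPM, as for Dlx5, Dlx6, Tbx1 and Eya4, and for Dlx1 and Dlx2 in control EBs + RA, few counts limit what can be detected.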

Other observations

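Beside the genes described above, trophoblast and pluripotency markers had calls in each mutant in EBs and in EBs + RA. Of these 2 stages, endoderm markers had calls only in EBs labelled Apex1 and in Neil1 EBs + RA. Endoderm markers had 0 called of 6 tested in Neil1 EBs, 0 of 6 in Neil2 EBs and 5 lower of 6 in EBs labelled Apex1, where they summed to 52.4 to 61.9 CPM against 215 to 407 CPM in control EBs. In EBs + RA 0 of the 6 were called in Neil2 and 0 in the libraries labelled Apex1 (medians 0.28 and -0.23), and in Neil1 4 of the 6 were higher, among them Ttr, a plasma carrier protein of visceral endoderm (log2 fold change 2.01, SE 0.55), and the endoderm factors Foxa2 (1.61, SE 0.36) and Sox17 (1.58, SE 0.33). Trophoblast markers had 2 higher and 1 lower of 5 in Neil1 EBs, with Cdx2, which also marks posterior mesoderm, at -5.50 (SE 0.24), and 5 higher of 5 in Neil1 EBs + RA, with Prl3d1, a hormone of giant cells, at 3.19 (SE 0.87). In Neil2 they had 1 higher and 1 lower in EBs and 4 higher and 0 lower in EBs + RA. The libraries labelled Apex1 had 0 higher and 2 lower of 5 in EBs and 2 higher and 3 lower of 5 in EBs + RA, where Prl3d1 was at -3.49 (SE 0.53). For Neil1, Neil2 and the libraries labelled Apex1, 10.4%, 8.65% and 11.9% of all genes were higher in EBs and 13.1%, 7.69% and 13.9% lower. In EBs + RA these shares were 21.2%, 18.3% and 13.9% higher and 19.9%, 16.6% and 10.9% lower.

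Pluripotency markers were called higher in 5 of 6 in Neil1 EBs and 5 of 6 in Neil1 EBs + RA, in 4 of 6 and 6 of 6 in Neil2, and in 4 of 6 and 5 of 6 in the libraries labelled Apex1. Pou5f1, a core factor of pluripotency, gave 0.92 (SE 0.08) in Neil1 EBs and 1.85 (SE 0.35) in Neil1 EBs + RA. Summed over the list, control EBs + RA held 76.3 to 115 CPM, Neil1 255 to 329, Neil2 174 to 493 and the libraries labelled Apex1 493 to 626 CPM. All genotype comparisons of a stage share their 3 control libraries.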
